A study of Mus musculus with 18 samples.

Results

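The genes described here are 10 mouse genes known for a burst of transcription in the embryo at the 2-cell stage: Duxf3, Zfp352, the deubiquitinase genes Usp17la, Usp17lb, Usp17lc, Usp17ld and Usp17le, Tcstv1, Tcstv3 and Pramef25. They are all the rows with these gene names among the 55487 genes of the deposited count tables. They were chosen by their higher counts after Smndc1 knockdown in these same data, so their levels in that contrast are given as a description and carry no test. The cells were alphaTC1, a line of mouse pancreatic alpha cells, the islet cells that make glucagon. In experiment 1 they were transduced with an shRNA against Smndc1 (shSmndc1, 3 libraries) or with an empty vector (EV, 3 libraries) and taken on day 5. In experiment 2 all cells also received RIP-mCherry, a red fluorescent reporter behind the rat insulin promoter. There the shRNA cells were sorted into those without mCherry (shSmndc1_RIP_neg, 4 libraries, called negative cells here) and those with it (shSmndc1_RIP_pos, 4 libraries, called positive cells). Cells with the empty vector and the reporter, for which no sort is named, gave the last 4 libraries (EV_RIP). The labels give experiment 2 no day and do not say that replicates were grown as separate cultures. The p-values therefore reflect only how far these libraries differ from one another, and that may be technical. All groups come from 1 cell line and, where an shRNA was used, from 1 shRNA as far as the labels say.

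Smndc1 encodes a Tudor-domain splicing factor. At the 2-cell stage the mouse embryo starts transcription of its own genome, and the homeodomain factor Dux, annotated here as Duxf3, switches on a set of genes that falls silent again soon after. Zscan4, Zfp352, the Usp17l genes and the Tcstv genes are among the known targets of Dux. The same set appears in rare cells of mouse embryonic stem cell cultures that resemble 2-cell embryos. In somatic cells such as pancreatic alpha cells the set is normally silent, and chromatin repressors such as the polycomb proteins and the chromatin-bound protein Rif1 are known to hold it down.

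The 10 genes lie in 7 places on 4 chromosomes of GRCm38, all are annotated as protein coding, and none shares an exonic base with another gene on either strand. Duxf3 lies at chr10:58229979-58232675 on the minus strand. Zfp352, a gene for a zinc finger protein, lies at chr4:90218820-90225702 on the plus strand. Pramef25, of the PRAME family of leucine-rich repeat proteins, lies farther along the same chromosome at chr4:143948580-143951016 on the minus strand. Tcstv1 and Tcstv3 encode small proteins named for the 2-cell stage and lie at chr13:119893388-119894785 (minus strand) and chr13:120316878-120318178 (plus strand). The Usp17l genes encode ubiquitin-specific proteases and form a pair and a trio on chromosome 7. The pair is Usp17ld at chr7:103249737-103252505 (minus strand) and Usp17lc at chr7:103415072-103419880 (plus strand). The trio is Usp17le at chr7:104768049-104777470 (minus strand), Usp17lb at chr7:104840257-104842603 (minus strand) and Usp17la at chr7:104857009-104862667 (plus strand).

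Several of these genes are near-identical copies, so a 75-base read may not tell them apart. The stretches below show this for the Usp17l genes. Each is 75 bases of coding sequence from the GENCODE M21 annotation of GRCm38, read on the gene's own strand, and capitals mark the 15 positions at which at least 1 of the 5 genes differs.
Usp17la: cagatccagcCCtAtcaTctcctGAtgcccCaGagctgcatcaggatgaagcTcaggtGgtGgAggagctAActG
Usp17lb: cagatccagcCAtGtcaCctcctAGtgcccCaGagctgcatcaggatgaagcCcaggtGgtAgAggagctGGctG
Usp17lc: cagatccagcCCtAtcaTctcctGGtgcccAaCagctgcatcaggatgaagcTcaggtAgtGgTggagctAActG
Usp17ld: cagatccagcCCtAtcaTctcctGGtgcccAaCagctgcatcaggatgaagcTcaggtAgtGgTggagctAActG
Usp17le: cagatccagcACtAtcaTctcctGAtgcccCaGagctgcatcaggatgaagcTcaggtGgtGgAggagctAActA
They lie at chr7:104860218-104860292, chr7:104841616-104841690, chr7:103417528-103417602, chr7:103251621-103251695 and chr7:104769729-104769803, in the order shown. Usp17lc and Usp17ld carry the same 75 bases there, whereas every other pair differs at 1 or more positions. Over the aligned coding sequence, Usp17lc and Usp17ld were identical at 98.4% of bases (1609 of 1635), and the other Usp17l pairs at 90.5% to 94.4%.

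Tcstv1 and Tcstv3 were identical at 94.5% of aligned coding bases (479 of 507). Their first 75 coding bases, at chr13:119894020-119894094 and chr13:120317567-120317641, do not differ at any position. The pair is shown first in that stretch and then in the coding stretch where they differ most, at chr13:119893591-119893665 and chr13:120317996-120318070, with the 11 differing positions in capitals.
Tcstv1, start: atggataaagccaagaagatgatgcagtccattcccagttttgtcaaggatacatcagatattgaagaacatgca
Tcstv3, start: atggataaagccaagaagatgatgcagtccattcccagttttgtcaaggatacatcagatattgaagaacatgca
Tcstv1, later: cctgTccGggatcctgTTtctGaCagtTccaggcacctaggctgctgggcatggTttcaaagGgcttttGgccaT
Tcstv3, later: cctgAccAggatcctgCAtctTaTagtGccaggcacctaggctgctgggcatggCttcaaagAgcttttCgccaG

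How far this touches the counts was measured by cutting each gene's exons into all its 75-base windows and looking for each window in every other annotated gene. Usp17ld shared 43.4% of its windows with another gene and Usp17lc 35.7%, and each shared 831 windows with the other. Usp17le shared 15.3%, Usp17lb 14.9% and Usp17la 7.67%, mostly with each other. Pramef25 shared 43.1%, none of it with the other 9 genes: Gm13040, Gm13043 and Gm13057 each held 22.5% of its windows and BC080695 19.1%. Duxf3 shared 34.1% with copies annotated as AW822073, Gm10807, Gm4981 and Gm19459. Tcstv3 shared 14.3% and Tcstv1 6.94%, with each other and with genes such as Gm21818. Zfp352 was nearly unique, sharing 2.86% with Zfp353-ps. No label or header names the counting program or its rule for reads with several places, so summed counts of near-identical genes are given beside the single genes.

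**Figure D1:**
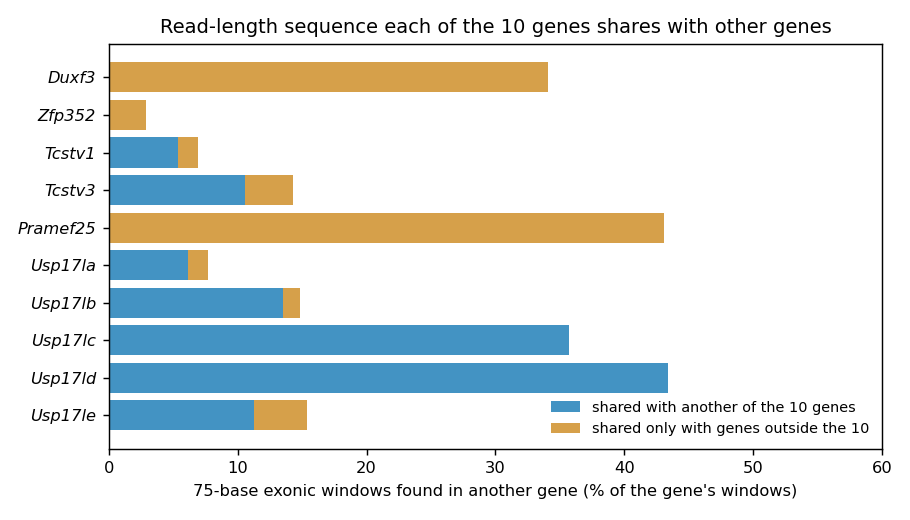
Share of each gene's 75-base exonic windows (x axis, % of that gene's windows) that occur in another annotated gene. Blue bars are windows shared with another of the 10 genes and ochre bars are windows shared only with genes outside the 10; Usp17ld (43.4%), Pramef25 (43.1%), Usp17lc (35.7%) and Duxf3 (34.1%) share most, and Zfp352 (2.86%) least.

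RefSeq promoters on GRCm38.p6 were at hand for 6 of the 10 genes (Duxf3, Zfp352, Usp17la, Usp17lb, Usp17lc and Usp17ld), and they are shown because all 6 genes belong to the set that was higher after knockdown, which is how the list was chosen. Each is the 250 bases before the RefSeq start, read toward the gene. Searches on both strands covered TATAAA (the TATA box), CCAAT (the CCAAT box) and GATTNAATC, the core of the site described for mouse Dux. The word GACAACACAC was added after the Zfp352 promoter had been read, as the 10-base word found most often in it. Capitals mark every match.
Duxf3: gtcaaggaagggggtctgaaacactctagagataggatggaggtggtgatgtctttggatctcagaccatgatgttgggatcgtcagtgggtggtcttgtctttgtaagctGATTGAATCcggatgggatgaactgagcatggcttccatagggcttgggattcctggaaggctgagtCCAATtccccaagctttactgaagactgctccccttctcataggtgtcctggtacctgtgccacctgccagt
Zfp352: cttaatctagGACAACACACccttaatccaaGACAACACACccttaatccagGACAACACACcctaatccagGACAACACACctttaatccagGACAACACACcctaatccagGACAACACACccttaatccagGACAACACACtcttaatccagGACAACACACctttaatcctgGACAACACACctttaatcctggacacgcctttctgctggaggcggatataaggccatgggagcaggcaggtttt
Usp17la: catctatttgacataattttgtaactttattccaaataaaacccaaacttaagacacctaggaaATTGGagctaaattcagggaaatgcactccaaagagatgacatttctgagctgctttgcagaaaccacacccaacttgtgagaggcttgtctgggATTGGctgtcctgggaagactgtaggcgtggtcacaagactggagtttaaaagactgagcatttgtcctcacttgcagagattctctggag
Usp17lb: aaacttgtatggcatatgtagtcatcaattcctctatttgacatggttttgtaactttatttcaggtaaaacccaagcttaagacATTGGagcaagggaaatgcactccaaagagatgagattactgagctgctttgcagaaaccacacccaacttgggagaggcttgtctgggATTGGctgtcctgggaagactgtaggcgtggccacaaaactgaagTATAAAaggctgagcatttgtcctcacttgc
Usp17lc: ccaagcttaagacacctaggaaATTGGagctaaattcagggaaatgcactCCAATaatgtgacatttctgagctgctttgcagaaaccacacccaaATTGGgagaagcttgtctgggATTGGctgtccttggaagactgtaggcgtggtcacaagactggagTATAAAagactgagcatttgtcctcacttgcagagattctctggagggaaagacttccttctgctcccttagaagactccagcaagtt
Usp17ld: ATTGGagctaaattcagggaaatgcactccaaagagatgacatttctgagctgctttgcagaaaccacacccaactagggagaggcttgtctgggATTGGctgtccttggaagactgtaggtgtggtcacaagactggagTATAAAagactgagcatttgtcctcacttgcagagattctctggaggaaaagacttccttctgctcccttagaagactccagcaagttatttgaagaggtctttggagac
They lie at chr10:58233090-58233339 (minus strand), chr4:90218570-90218819 (plus strand), chr7:104856766-104857015 (plus strand), chr7:104842584-104842833 (minus strand), chr7:103416446-103416695 (plus strand) and chr7:103252506-103252755 (minus strand), in the order shown. For Duxf3, Usp17la, Usp17lb and Usp17lc the RefSeq start differs from the end of the GENCODE gene given above. The Zfp352 promoter held 9 copies of GACAACACAC in a tandem array. Of 32817 promoters of this length, 14 held the word at all (0.0427%), and no promoter other than that of Zfp352 held more than 2 copies. Duxf3 itself carried 1 match to GATTNAATC, which 81 of the promoters held (0.247%). The other 5 promoters shown carried none, and the match overlapped no other motif. TATAAA stood in the promoters of Usp17lb, Usp17lc and Usp17ld and in 12.4% of all promoters. The last base of this word lay 26 bases before the RefSeq start in Usp17lb, but 83 in Usp17lc and 105 in Usp17ld. CCAAT stood in all 4 Usp17l promoters and in that of Duxf3, in 2 to 4 copies in the Usp17l genes, and in 33.8% of all promoters. Over the stretch that aligned, the 4 Usp17l promoters were identical to one another at 85.5% to 97.3% of positions, so their matches are not independent. A match is a description of these letters and not a shown binding site.

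Total counts per library lay between 37233208 and 66676008 in shSmndc1 and between 40781919 and 53455167 in EV. In experiment 2 they lay between 8084574 and 80757285 in negative cells, 34045268 and 48138634 in positive cells, and 49345067 and 103048766 in EV_RIP. Smndc1 stood at 10.4, 9.52 and 10.5 CPM (counts scaled to the size of the library) in shSmndc1, against 41.9, 40.2 and 35.1 CPM in EV, and fell by 1.94 on the log2 scale (adjusted p = 0.00145, edgeR's quasi-likelihood test with Benjamini-Hochberg adjustment). In experiment 2 it stood at 16.6, 22.4, 16.0 and 25.2 CPM in positive cells, against 37.6, 54.9, 39.3 and 46.3 CPM in EV_RIP (log2 fold change -1.15, adjusted p = 0.00384). In negative cells it stood at 23.9, 43.4, 36.3 and 44.6 CPM and did not pass the test against EV_RIP (log2 fold change -0.27, adjusted p = 0.378). The negative cells thus carry the shRNA by their label, while their Smndc1 level did not pass the test. Negative replicate 3 had the fewest counts (3 counts being 0.361 CPM) and the most Rn7sk, a small nuclear RNA that is not polyadenylated, at 161 CPM, against 4.53, 18.6 and 45.4 CPM in the other negative libraries.

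In the knockdown at day 5, all 10 genes stood higher in every shSmndc1 library than in every EV library. Of the 18202 genes tested, 7.22% were called higher and 7.5% lower, and all 10 genes were among those called higher, as the choice of the list fixed, and nothing is read from that count. Every library of shSmndc1 lay above every library of EV for 13.3% of the genes with at least 1 count. The 10 genes had a median log2 fold change of 3.39, against -0.00 over all genes tested, and the ratio of mean CPM ran from 7.56 (Pramef25) to 16.0 (Usp17ld). Their counts were small: the 30 values in shSmndc1 ran from 10 to 242 counts with a median of 50, and the 30 values in EV from 0 to 19 with a median of 4, of which 14 were at or under 3 counts. All 10 passed the filter on low counts, and they did so through the shSmndc1 libraries. The number called was 3 without EV replicate 3 and 7 without EV replicate 2 or shSmndc1 replicate 2. In bulk RNA, more cells with these transcripts and more of them per cell cannot be told apart.

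Duxf3, the activator of the set, had 1.04, 0.706 and 0.254 CPM in shSmndc1 replicates 1, 2 and 3, against 0.0737, 0.0195 and 0.114 CPM in EV. Its log2 fold change was 3.27 (SE 0.69). The groups did not overlap, but the lowest shSmndc1 library, replicate 3, held 10 counts where the others held 48 and 47. With its 4 copies added, the Dux sum was 1.69 ± 0.618 CPM in shSmndc1 and 0.189 ± 0.167 CPM in EV (SD, n = 3 each), 8.96-fold higher.

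Zfp352 had 0.776, 0.931 and 1.34 CPM in shSmndc1, against 0.221, 0.0973 and 0.0686 CPM in EV, a log2 fold change of 2.97 (SE 0.48). Here replicate 3 was the highest of the shSmndc1 libraries, the reverse of Duxf3. Of the 10 genes it shares the fewest windows, so its counts are the least open to mixing with a copy.

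Usp17le had the most counts of the proteases. Its level was 3.06, 3.64 and 4.69 CPM in shSmndc1, against 0.467, 0.0973 and 0.183 CPM in EV, a log2 fold change of 3.96 (SE 0.48). Usp17ld, with 0.906, 1.25 and 1.88 CPM in shSmndc1 against 0.147, 0.0584 and 0.0458 CPM in EV, gave 3.99 on the log2 scale. Its near copy Usp17lc had 0.733, 1.17 and 1.47 CPM in shSmndc1 and 0.147, 0.0389 and 0.206 CPM in EV, with a log2 fold change of 3.11. In all of these 3 genes shSmndc1 replicate 3 was the highest library. Usp17la had 0.733, 1.08 and 0.685 CPM in shSmndc1 and 0.123, 0.0195 and 0.0229 CPM in EV. Usp17lb had 0.582, 0.841 and 0.685 CPM in shSmndc1 and 0.0982, 0 and 0.0915 CPM in EV. For this neighbouring pair, whose log2 fold changes were 3.94 and 3.50, replicate 2 was the highest.

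Summed over the 5 Usp17l genes, the level was 6.02, 7.98 and 9.41 CPM in shSmndc1, against 0.982, 0.214 and 0.549 CPM in EV, a 13.4-fold ratio of the means. The sum does not depend on how reads were divided between these 5 genes, though reads dropped as ambiguous would be missing from it. Reads shared with genes outside the 5 could still change it. With the near copies Usp17le-ps and Gm5053 added, the ratio of the means was also 13.4. Adgrv1, which holds 1.47% of the Usp17la windows, is in neither sum. Usp17le took 48.2% of the Usp17l counts in shSmndc1 (569 of 1181, 95% Wilson interval 45.3% to 51%) and 42.7% in EV (32 of 75, interval 32.1% to 53.9%). These intervals overlap and cover counting error only.

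Tcstv1 had 0.992, 1.01 and 1.57 CPM in shSmndc1, against 0.147, 0.0778 and 0 CPM in EV, a log2 fold change of 3.95. Tcstv3 had 0.539, 0.361 and 1.09 CPM in shSmndc1, against 0.123, 0.0584 and 0.0229 CPM in EV, a log2 fold change of 3.24. Both were highest in replicate 3 of shSmndc1. Their sum was 1.53, 1.37 and 2.66 CPM in shSmndc1 and 0.270, 0.136 and 0.0229 CPM in EV, 13-fold higher. With the 4 near-identical genes outside the 10 added, the level was 6.0 ± 1.82 CPM in shSmndc1 and 0.464 ± 0.352 CPM in EV (SD, n = 3 each), 12.9-fold higher.

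Pramef25 had 1.55, 1.40 and 1.17 CPM in shSmndc1, against 0.418, 0.0584 and 0.0686 CPM in EV. Its log2 fold change, 2.95 (SE 0.62), was the smallest of the 10. EV replicate 1 stood far above the other EV libraries, and without it the log2 fold change was 4.38. Together with its 7 near copies, Pramef25 gave 7.09 ± 1.49 CPM in shSmndc1 and 1.18 ± 1.24 CPM in EV, 5.99-fold higher.

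**Figure D2:**
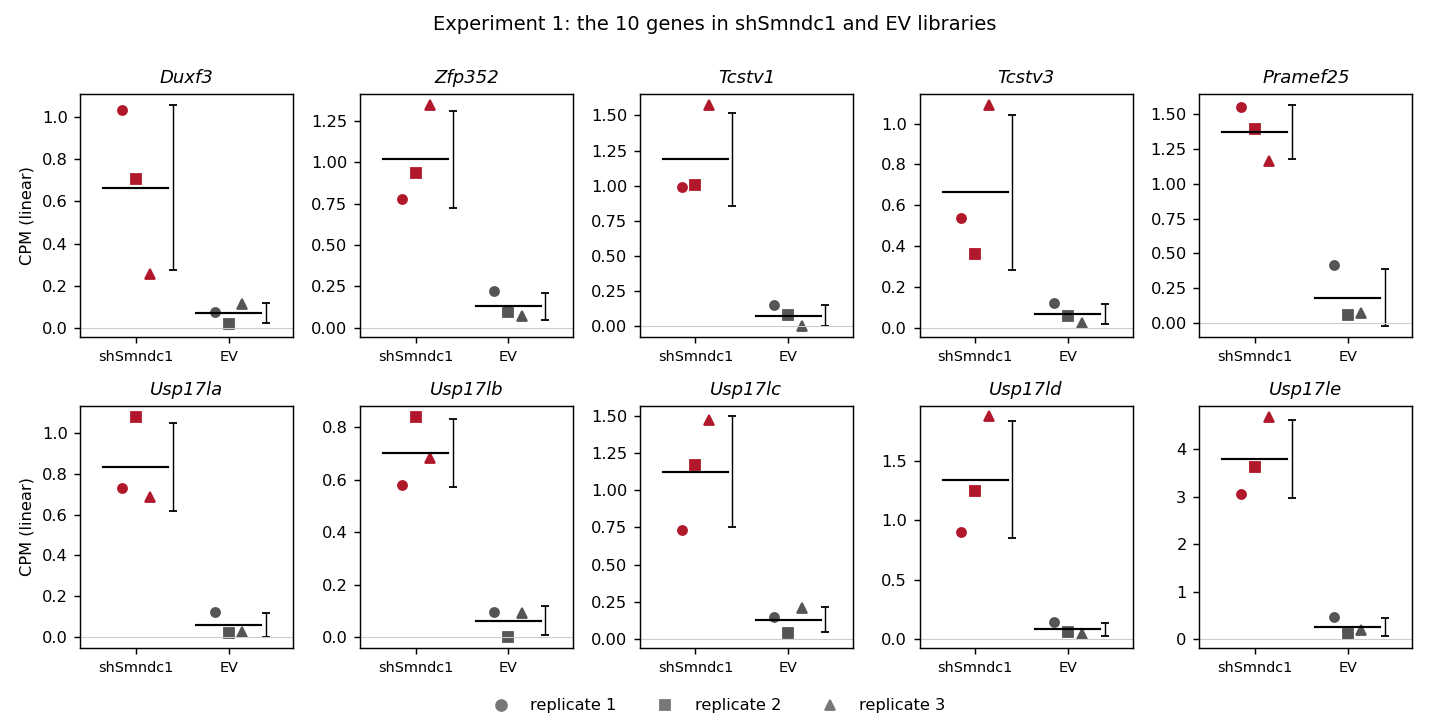
CPM on a linear axis (y) of each of the 10 genes in the 3 shSmndc1 libraries (red, left) and the 3 EV libraries (grey, right) of experiment 1. Marker shapes stand for replicates, horizontal lines for group means and bars for ± 1 SD; in every panel all red points lie above all grey points, and replicate 3 is the lowest red point for Duxf3 and the highest for Usp17le.

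The 10 genes did not vary together within the shSmndc1 group. Replicate 3 was the highest shSmndc1 library for 6 genes (Zfp352, Usp17lc, Usp17ld, Usp17le, Tcstv1 and Tcstv3), replicate 1 for Duxf3 and Pramef25, and replicate 2 for Usp17la and Usp17lb. Set against the mean of the other shSmndc1 libraries, replicate 3 held 0.291 times the Duxf3 level but 1.84 times the Tcstv sum and 1.34 times the Usp17l sum. Usp17la (0.754 times), Pramef25 (0.791 times) and Usp17lb (0.962 times) were also lower there. So was the sum of the 9 Zscan4 genes, with 44.2, 44.9 and 27.8 CPM in shSmndc1, against 4.40, 1.42 and 1.40 CPM in EV. In positive cells of experiment 2 Zscan4 did not follow Duxf3: replicate 4 had the most Duxf3 (0.546 CPM) and the least Zscan4 (4.63 CPM). The shSmndc1 replicate 3 library also carried 8.82 CPM of Rn7sk, against 4.38 and 2.57 CPM in the others, and 1.69 times their mitochondrial level. The part of these in the difference was not tested. Within EV, replicate 1 was the highest library for 8 of the 10 genes, with 1.97 CPM for the sum of all 10, against 0.525 and 0.824 CPM in replicates 2 and 3. Its Zscan4 sum was high as well, at 4.40 CPM. Without EV replicate 1 the log2 ratio of the summed level was 4.22 instead of 3.52.

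Per length of transcript, the level of each gene can be set against the others. In the authors' FPKM (fragments scaled to transcript length and library size), Usp17le had the highest mean in all 5 groups, with 1.88 ± 0.39 FPKM in shSmndc1 and 0.124 ± 0.096 FPKM in EV (SD, n = 3 each). Its lead was larger than the spread between libraries in shSmndc1 alone. In positive cells it had 0.321 ± 0.126 FPKM and Pramef25 0.316 ± 0.163 FPKM (SD, n = 4 each), and in negative cells, EV and EV_RIP the next gene also lay within its spread. In shSmndc1 it was followed by Tcstv1 (0.838 ± 0.223 FPKM), Tcstv3 (0.837 ± 0.471 FPKM), Pramef25 (0.805 ± 0.121 FPKM) and Usp17ld (0.665 ± 0.237 FPKM), which lay within one another's spread. Usp17lc (0.452 FPKM), Usp17lb (0.444 FPKM) and Zfp352 (0.440 FPKM) came next and also lay within their spread, and Usp17la (0.310 FPKM) and Duxf3 (0.244 FPKM) were lowest.

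In experiment 2 the genes were scarcer and the groups less clearly apart. Only Usp17lc, Usp17ld, Usp17le and Pramef25 had enough counts to enter the test. Pramef25 had 1 to 6 counts per EV_RIP library, Usp17lc 0 to 18, Usp17ld 1 to 10 and Usp17le 1 to 18. All 4 entered through the knockdown libraries, and the list was chosen on these data. Nothing is therefore read from the calls of these 4 genes below. In positive cells all 10 genes had a higher mean CPM than in EV_RIP, by ratios of 1.91 (Tcstv3) to 10.9 (Pramef25), and 1 of the 4 genes tested, Pramef25, was called higher, where 8.47% of all 18897 genes tested were called higher and 8.92% lower. In negative cells 9 of the 10 genes had a higher mean than in EV_RIP, by up to 6.93-fold (Duxf3), with Tcstv3 at 0.986-fold, and 1 of the 4 tested genes, again Pramef25, was called higher, where 8.17% of all genes were called higher and 5.69% lower. No gene of the 10 had every negative library above every EV_RIP library, against 4.86% of genes with at least 1 count. The call in negative cells was lost without EV_RIP replicate 1, 3 or 4 or without negative replicate 4, with log2 fold changes of 2.29 to 2.96 there. Both comparisons share the EV_RIP libraries, so they are not independent of each other. Of the 40 values of each group, 12 were 0 in negative cells, 2 in positive cells and 7 in EV_RIP, and the largest counts were 33, 33 and 18.

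Pramef25 had 0.497, 0.142, 0 and 0.596 CPM in negative cells and 0.358, 0.811, 0.245 and 0.719 CPM in positive cells, against 0.0834, 0.0589, 0.0324 and 0.0207 CPM in EV_RIP. Every positive library lay above every EV_RIP library, a pattern seen for 7.66% of genes with at least 1 count, whereas negative replicate 3 held no count. That library's 3-count limit is 0.361 CPM, above the EV_RIP levels. The log2 fold change was 3.36 (SE 0.69) in positive cells and 2.69 (SE 0.72) in negative cells against EV_RIP. With its near copies positive cells had 2.34 ± 0.828 CPM, against 0.453 ± 0.218 CPM in EV_RIP (SD, n = 4 each), 5.16-fold higher, with no overlap of the libraries.

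Duxf3 had 0.236, 0.0829, 0 and 0.318 CPM in negative cells and 0.105, 0.209, 0.0273 and 0.546 CPM in positive cells, against 0.0417, 0.0294, 0 and 0.0207 CPM in EV_RIP. Positive replicate 3 with 1 count fell within the EV_RIP range, and the other positive libraries lay above it. The mean ratio was 9.67 in positive cells and 6.93 in negative cells. Summed over the Dux copies, positive cells had 0.641 ± 0.269 CPM, against 0.0798 ± 0.0614 CPM in EV_RIP (SD, n = 4 each), and there every positive library was above every EV_RIP library.

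Usp17le had 0.864, 0.308, 0 and 0.477 CPM in negative cells and 0.526, 0.785, 0.899 and 0.345 CPM in positive cells, against 0.375, 0.177, 0.146 and 0.0207 CPM in EV_RIP. The positive libraries overlapped with EV_RIP at 1 point, positive replicate 4 lying below EV_RIP replicate 1. The fit gave a log2 fold change of 1.82 (SE 0.65) in positive cells and 1.35 (SE 0.67) in negative cells. It was called in positive cells under DESeq2 or without the filter on low counts, which brings the called genes to 2 of 4. With the replicate number as a block, 2 of 4 were called as well. Nothing is read from these calls. Usp17lc and Usp17ld had log2 fold changes of 1.75 and 1.69 in positive cells and 1.45 and 1.78 in negative cells, with SEs of 0.76 to 0.86, and their libraries overlapped with EV_RIP in both comparisons. The remaining Usp17l genes, Usp17la and Usp17lb, stayed at 0.278 CPM or less in every library of experiment 2.

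The Usp17l sum was 2.12, 0.758, 0.240 and 1.63 CPM in negative cells and 1.26, 2.20, 1.17 and 0.920 CPM in positive cells, against 0.896, 0.520, 0.211 and 0.0414 CPM in EV_RIP. Every positive library lay above every EV_RIP library, the nearest pair being 0.920 and 0.896 CPM (ratio of means 3.33), while the negative libraries overlapped with EV_RIP (ratio 2.84). In positive replicate 3 Usp17le alone made up 76.7% of the Usp17l counts (33 of 43, interval 62.3% to 86.8%), against 35.7% to 41.7% in the other positive libraries. In EV_RIP replicate 3 the share was 69.2% (9 of 13 counts, interval 42.4% to 87.3%).

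Zfp352 and the Tcstv genes had few counts in experiment 2. Zfp352 had 0.0785, 0, 0 and 0.357 CPM in negative cells and 0.0211, 0.262, 0 and 0.460 CPM in positive cells, against 0.0625, 0.0491, 0.0162 and 0.0414 CPM in EV_RIP, so that its higher means rest on 1 negative and 2 positive libraries. The Tcstv sum was 0.314, 0.249, 0 and 0 CPM in negative cells and 0.274, 0.314, 0.0273 and 0.287 CPM in positive cells, against 0.104, 0.147, 0.0486 and 0.0207 CPM in EV_RIP. Zfp352, Tcstv1 and Tcstv3 had too few counts to enter the test in experiment 2, and these differences were not tested.

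**Figure D3:**
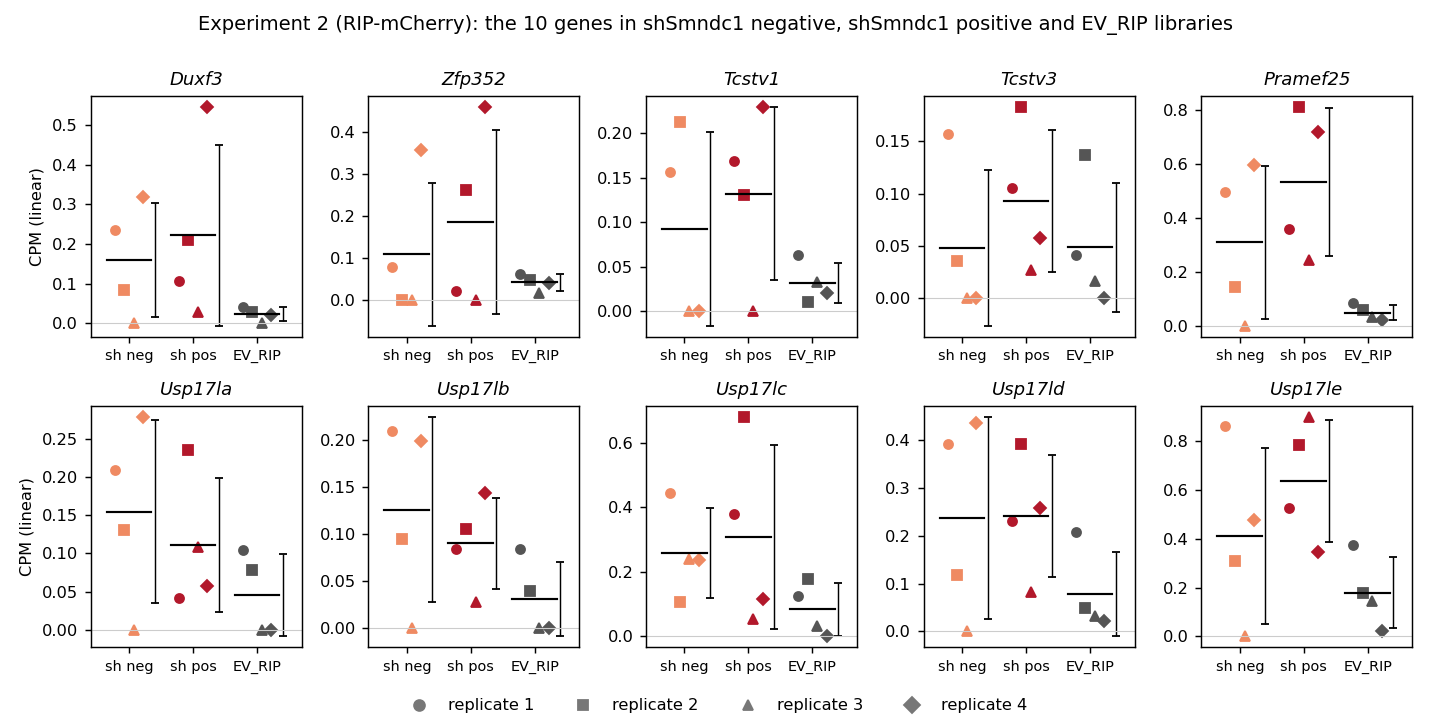
CPM on a linear axis (y) of each of the 10 genes in the 4 negative libraries (orange), 4 positive libraries (red) and 4 EV_RIP libraries (grey) of experiment 2. Marker shapes stand for replicates, horizontal lines for group means and bars for ± 1 SD; Pramef25 is the gene whose positive points (0.245 to 0.811 CPM) all lie above EV_RIP (at most 0.0834 CPM), and negative replicate 3 (triangles) lies at 0 for 9 of 10 genes.

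The ratios of mean CPM in the 2 experiments can be set side by side. The Usp17l sum was 13.4-fold higher in shSmndc1 than in EV, 3.33-fold in positive cells and 2.84-fold in negative cells than in EV_RIP. For the Tcstv sum the ratios were 13 in shSmndc1, 2.81 in positive cells and 1.75 in negative cells. For the Dux copies they were 8.96, 8.03 and 6.58, and for Pramef25 alone 7.56, 10.9 and 6.32. For Zfp352 they were 7.89, 4.39 and 2.58. The 7.56 of Pramef25 includes EV replicate 1, without which its log2 fold change in experiment 1 was 4.38. The experiments were run as separate tables with different treatments and no stated common day, and the difference between them was not tested.

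**Figure D4:**
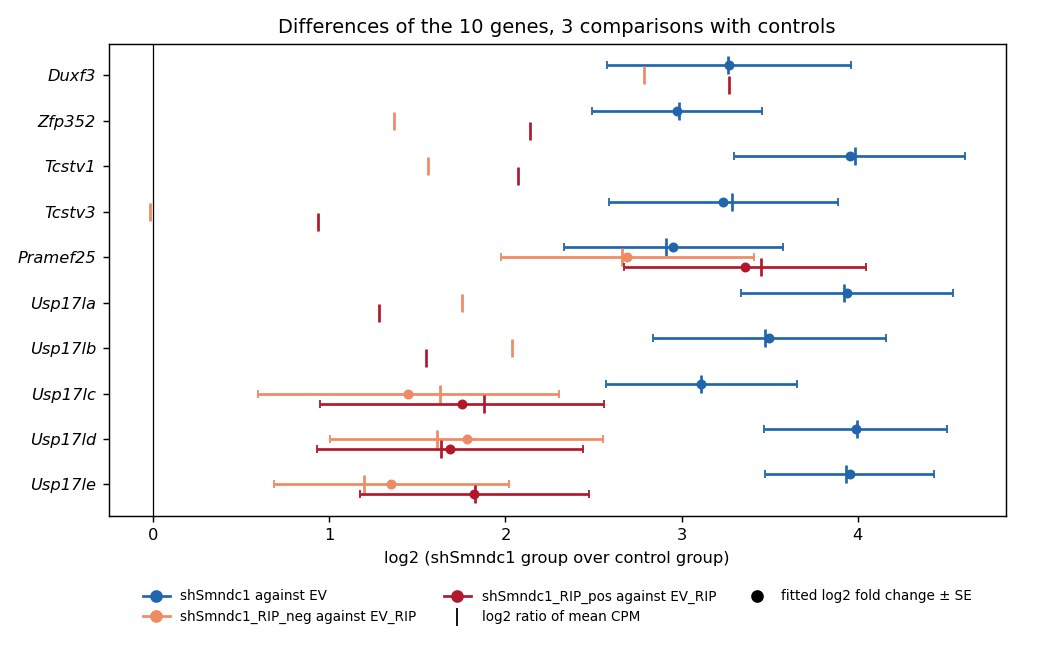
Log2 difference (x axis) of each of the 10 genes in shSmndc1 against EV (blue), negative cells against EV_RIP (orange) and positive cells against EV_RIP (red). Points with bars are fitted log2 fold changes ± SE for genes that entered the test, and short vertical ticks are log2 ratios of mean CPM for all 10; in positive cells Pramef25 (3.36) lies beside its value in experiment 1 (2.95), while the Usp17l genes lie lower.

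Positive and negative knockdown cells were then compared with each other. Of the 18897 genes tested, 0% were called higher and 0% lower by edgeR, with 998 higher and 1316 lower at an unadjusted p under 0.05, and with 110 and 205 called by DESeq2 and 22 and 56 called by edgeR with the replicate number as a block. None of the 4 tested genes was called in any of these, and no gene of the 10 had every positive library above every negative one, against 2.17% of genes with a count. Their log2 fold changes, positive over negative, were 0.67 (SE 0.61) for Pramef25, 0.47 (SE 0.64) for Usp17le, 0.31 (SE 0.81) for Usp17lc and -0.09 (SE 0.72) for Usp17ld. The sum over all 10 genes was 2.55 ± 1.02 CPM in positive cells and 1.90 ± 1.41 CPM in negative cells (SD, n = 4 each), a ratio of 1.34. The SEs come from a fit without replicate pairs. They leave room for differences in either direction, and these values do not show that the populations are alike. Smndc1 was 0.541 times as high in positive as in negative cells (log2 fold change -0.89, adjusted p = 0.127 by edgeR), and it passed the test under DESeq2, without the filter, with the block and without negative replicate 1.

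The 10 genes' summed level per library was 3.24, 1.23, 0.240 and 2.90 CPM in negative cells and 2.02, 3.79, 1.47 and 2.93 CPM in positive cells, against 1.19, 0.805, 0.308 and 0.145 CPM in EV_RIP. All positive libraries lay above EV_RIP, with a ratio of means of 4.18, and negative replicate 3 lay inside the EV_RIP range, with a ratio of 3.11 for that group. The Zscan4 sum was 15.1, 3.07, 0 and 2.26 CPM in negative cells and 6.49, 8.58, 7.58 and 4.63 CPM in positive cells, against 3.27, 2.45, 1.05 and 0.828 CPM in EV_RIP. Negative replicates 1 and 4 had similar sums of the 10 genes but differed in Zscan4, so that the 10 genes stood at 0.215 and 1.28 times the Zscan4 sum in them. Over the other libraries of both experiments with any Zscan4 count this ratio lay between 0.175 and 0.633.

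**Figure D5:**
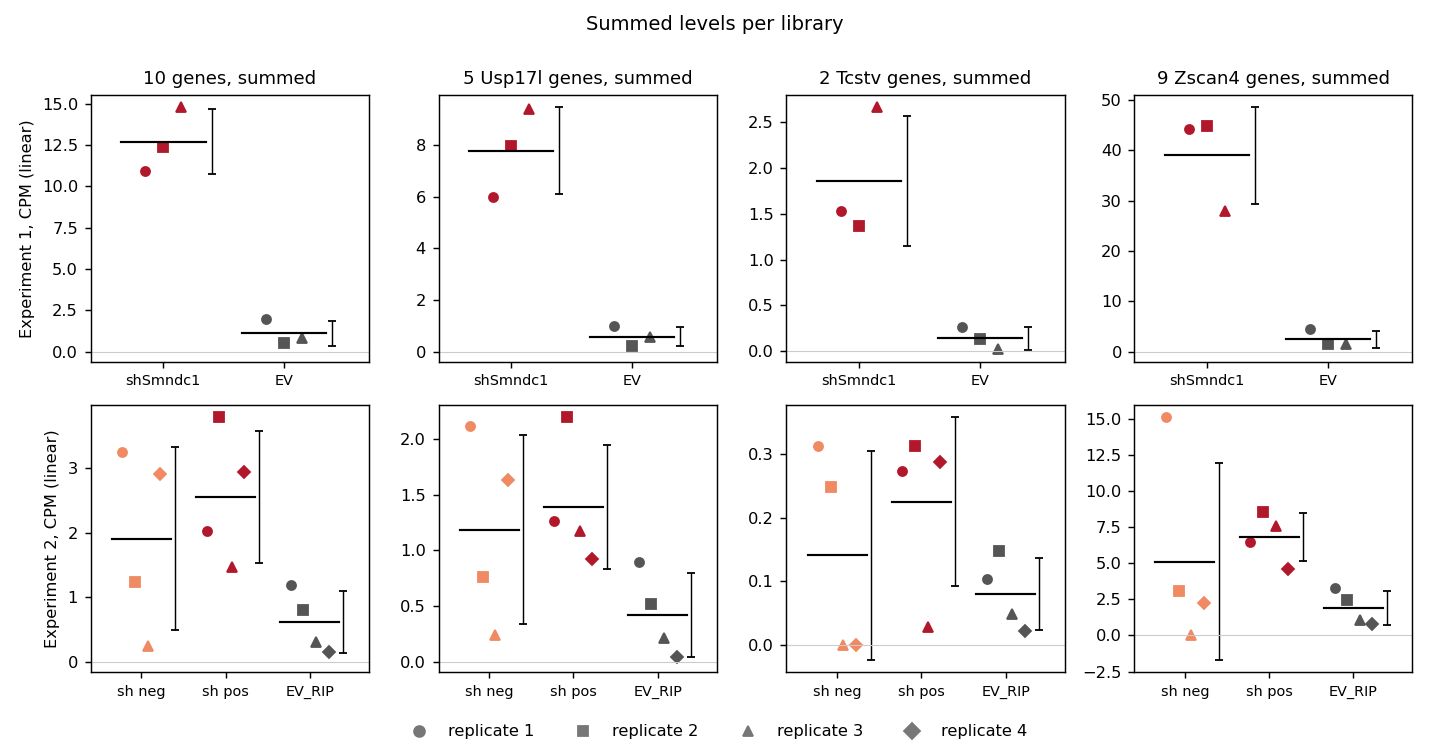
Summed CPM on linear axes (y) of the 10 genes, the 5 Usp17l genes, the 2 Tcstv genes and the 9 Zscan4 genes, in experiment 1 (top; shSmndc1 red, EV grey) and experiment 2 (bottom; negative orange, positive red, EV_RIP grey). Shapes stand for replicates, lines for means and bars for ± 1 SD; in shSmndc1 replicate 3 (triangle) is highest for the 10 genes (14.8 CPM) and lowest for Zscan4 (27.8 CPM).

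Across the 12 libraries of experiment 2, the tested genes whose level followed the sum of the 10 most closely were BC080695 (Spearman rho 0.979), Gm13057 (0.958), Slc16a1 (0.937), Gm4302 (0.93) and Gm18983 (0.923), out of 18893 genes ranked. The first pair shares windows with Pramef25, so reads may be common to both sides. Slc16a1 encodes a transporter of lactate and pyruvate. After subtracting each group's mean, rho was 0.909, 0.923, 0.713, 0.902 and 0.818 for the 5 genes. The points share libraries and depth, and the values are descriptive.

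Of 46 further 2-cell stage genes listed for comparison and present in the tables, 34 had a count in experiment 1, 13 entered the test, 11 were called higher and none lower in shSmndc1, where 7.22% of all genes tested were called higher. Their median log2 fold change was 3.19, against -0.00 over all genes tested. Every shSmndc1 library lay above every EV library for 20 of the 34, against 13.3% of all genes with a count. Genes with few counts in EV could enter the test only through the shSmndc1 libraries, so these counts are a description. The smallest p-values belonged to Gm20767 (log2 fold change 3.91, adjusted p = 0.00536), Gm21818 (3.45, 0.00716), Gm2016 (3.72, 0.00874) and Pramef8 (0.60, 0.0134), of which the first pair shares windows with the Tcstv genes. The count was 6 without EV replicate 2 and 1 without EV replicate 3. In experiment 2, 7 of them entered the test, with a median log2 fold change of 0.62 in positive cells and 0.56 in negative cells. Pramef8 (log2 fold change 0.62, adjusted p = 0.00465) and Tmem92 (2.50, 0.0294) were called in positive cells, and Pramef8 (0.46, 0.0227) and Kdm4dl (1.65, 0.0246) in negative cells. All 9 Zscan4 genes were called in experiment 1 (median log2 fold change 4.24), and Zscan4e was the 1 of 8 tested that was called in positive cells (2.16, adjusted p = 0.0466). In negative cells the lowest adjusted p was also that of Zscan4e (log2 fold change 1.99, adjusted p = 0.073). Of all genes tested in experiment 2, 8.47% were called higher in positive cells and 8.17% in negative cells. Nothing is read from the numbers of these genes called in experiment 2.

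Factors known to act on the 2-cell programme were read from lists as well. Of 7 tested genes listed as activators, Gata2, Nelfa and Trp53, the p53 gene, were called higher in shSmndc1 than in EV. Their log2 fold changes were 0.77 (adjusted p = 0.0147), 0.53 (0.0192) and 0.54 (0.0292). Gata2 was called higher in positive cells (0.90, adjusted p = 0.00839) and in negative cells (0.71, 0.0278) as well. Nelfa (0.40, 0.0357) was called in positive cells, and Tet3 (0.61, 0.0382) and Trp53 (0.65, 0.0391) in negative cells. These data do not show in which direction a listed gene acts, and for Tet3 none is read from its listing. Dppa2 and Dppa4, which switch on Dux in embryonic stem cells, had at most 3 counts in any library of experiment 1. Of 28 tested repressors, Rif1 (log2 fold change -0.87, adjusted p = 0.00522), the polycomb gene Ring1 (-0.78, 0.0111) and the chromatin remodeller Atrx (-0.44, 0.0374) were called lower in shSmndc1 and the SUMO ligase Pias4 (0.84, 0.0206) higher. Ring1 was also called lower in positive cells (-0.83, adjusted p = 0.00247) and negative cells (-0.48, 0.0314), while Rif1 was not among the 4 repressors called in either. Hdac1 was called lower in positive cells (-0.56, 0.0148) and negative cells (-0.55, 0.0219). Called higher in positive and negative cells were Pias4 (0.57, 0.0497 and 0.64, 0.0392) and Morc3 (0.40, 0.0483 and 0.47, 0.0318). Over the 28 repressors the median log2 fold change was 0.00 in experiment 1, and in both comparisons with EV_RIP 2 were called higher and 2 lower. Over all genes tested, 7.22% were called higher and 7.5% lower in shSmndc1. The shares were 8.17% and 5.69% in negative cells and 8.47% and 8.92% in positive cells. The repressor calls lie near these shares, and nothing is read from the number of calls in either short list. Whether any of these factors bears on the 10 genes was not tested.

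Genes next to the 10 were examined as a check on their surroundings, taking the nearest on each side with a mean of at least 10 counts per library. Gm13078, 219 kb from Pramef25, was called higher in shSmndc1 (log2 fold change 4.64, adjusted p = 0.0155), in positive cells (2.47, 0.0466) and in negative cells (2.73, 0.0379). It ranked 9 of 18893 genes in how closely it followed the sum of the 10 over experiment 2 (rho 0.902). Its level is therefore no reading of the surroundings alone. Gm16464, 266 kb from Usp17le, was called lower in shSmndc1 (-1.12, 0.0266), positive cells (-0.98, 0.0399) and negative cells (-1.19, 0.0254). Elavl2, 1025061 bases from Zfp352, was called lower in positive cells (-0.64, 0.0212) and negative cells (-0.57, 0.0382) but not in shSmndc1 (-1.21, 0.0535). The other 10 neighbours did not pass the test in any comparison with controls. Among them, in shSmndc1, were Gcc2 at 22.8 kb from Duxf3 (log2 fold change 0.01) and Gm20900 at 12.2 kb from Tcstv3 (-0.04). In experiment 2 Gcc2 averaged 49.9 CPM in negative cells and 62.9 CPM in positive cells, against 49.5 CPM in EV_RIP. Gm20900 averaged 8.93 CPM in negative cells and 10.3 CPM in positive cells, against 11.7 CPM in EV_RIP. Over all genes tested, 7.22% were called higher and 7.5% lower in shSmndc1. The shares were 8.17% and 5.69% in negative cells and 8.47% and 8.92% in positive cells. Nothing is read from the number of neighbours called.

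Markers of other cell types, embryonic and somatic, were measured beside the 10 genes. Of 8 pluripotent cell markers, 4 had a count in experiment 1, and Klf4 was the 1 marker that entered the test (33.8 CPM in shSmndc1 and 30.5 CPM in EV, log2 fold change 0.15, adjusted p = 0.484). The summed level of the 8 was 30.5 to 39.8 CPM in shSmndc1 and 29.2 to 32.9 CPM in EV. Sox2, Zfp42, Tdgf1 and Dppa5a were at 0 in all 6 libraries, Pou5f1 had at most 1 count, and Esrrb had 5 to 16 counts in shSmndc1 and 0 to 2 in EV. Of 13 germ cell and oocyte markers, 11 had a count, Sycp3 and Gdf9 entered the test and neither was called (adjusted p = 0.663 and 0.651), and the sum was 1.27 to 2.31 CPM in shSmndc1 and 1.58 to 2.33 CPM in EV. In experiment 2 Klf4 averaged 45.8 CPM in negative cells and 42.6 CPM in positive cells, against 24.7 CPM in EV_RIP, and passed the test in neither (adjusted p = 0.0535 and 0.0732). Summed, the 8 gave 16.5 to 30 CPM in EV_RIP. In negative cells the sum was 30.8 to 64.6 CPM, and in positive cells 27.1 to 63.8 CPM. Zfp42 and Dppa5a stayed at 0 in all 12 libraries, and Sox2, Tdgf1 and Pou5f1 had at most 2 counts. Esrrb averaged 0.0578 CPM in EV_RIP (at most 0.118), 0.353 CPM in negative cells (at least 0.154) and 0.147 CPM in positive cells. It had 18 counts or fewer per library and did not enter the test. Of the 6 markers with a count, Klf4 and Esrrb had all negative libraries above all EV_RIP libraries, where 4.86% of all genes did. For positive cells this held for 0 of 4 markers, where 7.66% of all genes did. The germ cell and oocyte markers summed to 1.52 to 3.34 CPM in negative cells and 1.58 to 2.82 CPM in positive cells, against 0.98 to 1.62 CPM in EV_RIP. Every negative library lay above every EV_RIP library for 3 of the 10 with a count, Gdf9 among them, against 4.86% of all genes. In positive cells 0 of 10 did so, against 7.66%. Gdf9 was not called in negative cells (log2 fold change 1.23, adjusted p = 0.0595) or positive cells (0.66, 0.273), nor was Sycp3. Of 5 endothelial markers 2 were tested. Esam was called higher in shSmndc1 (log2 fold change 2.21, adjusted p = 0.0319), in negative cells (3.02, 0.0164) and in positive cells (2.17, 0.0381), and Pecam1 in negative cells (1.61, 0.0219). The 5 markers summed to 1.44 to 1.92 CPM in shSmndc1 against 1.03 to 1.81 CPM in EV, and 2.2 to 6.08 CPM in negative cells and 1.5 to 3.88 CPM in positive cells against 1.13 to 1.88 CPM in EV_RIP. Of 5 fibroblast markers 3 were tested. Pdgfra was called higher in shSmndc1 (1.57, 0.0157) and positive cells (1.64, 0.0113), and Col1a1 in negative cells (1.71, 0.0455) and positive cells (2.09, 0.0156). The 5 markers summed to 6.85 to 11.4 CPM in shSmndc1 against 4.99 to 6.21 CPM in EV, and 5.84 to 9.52 CPM in negative cells and 11.5 to 17.1 CPM in positive cells against 3.25 to 11.9 CPM in EV_RIP. Of 5 leukocyte markers the 1 tested, Csf1r, was called higher in shSmndc1, with a sum of 15.6 to 18.7 CPM against 10.1 to 13 CPM in EV. Over all genes tested, the share called higher was 7.22% in shSmndc1, 8.17% in negative cells and 8.47% in positive cells. The part of these in the levels of the 10 genes was not tested. Gcg, the glucagon gene, had 7630 ± 1190 CPM in shSmndc1 and 5110 ± 1580 CPM in EV (SD, n = 3 each).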

How the data were processed

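RNA of 18 alphaTC1 libraries was measured by stranded mRNA sequencing with 75-base paired ends, per the labels' protocols. The authors deposited, per experiment, a table of raw counts per gene (whole numbers, unscaled) and a table of FPKM values, in which each count is scaled by gene length and by a factor per library. The submitters' processing notes name the build GRCm38/mm10 and the tools DESeq2 1.30.0, Picard 2.19.2 and STAR 2.7.5a. The program that counted reads, and whether it used strand, is not named there. Of 55487 genes, 54821 have the same coordinates in GENCODE M21.

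The main test was edgeR's quasi-likelihood test (edgeR 4.0.16, R 4.3.3) after filterByExpr and TMM scaling, adjusted by Benjamini-Hochberg over all genes tested; adjusted p under 0.05 counts as called. Experiment 1 (6 libraries) and experiment 2 (12 libraries) were fitted apart. DESeq2 1.42.0, other scalings, no filter, a replicate block and leaving out libraries were alternatives. CPM are counts over the scaled library size, and 3 counts are taken as the limit that a count of 0 allows; intervals and limits cover counting error only. Coding sequences were aligned with mafft 7.526 and promoters with Biopython 1.88 (local alignment). The edgeR steps were tested on simulated data.

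The 10 genes and the lists were chosen with earlier results of these data known, and no p-value is therefore printed for the 10 genes; where they are counted as called, the count describes the fit and supports nothing. Other named genes are, per list and comparison, up to 4 with the smallest p, Smndc1, the nearest neighbours, the 5 genes most alike over experiment 2, and genes sharing 75-base windows. Same-numbered negative and positive libraries deviated together from their group means (correlations 0.62, 0.355, 0.136 and 0.311), so their numbers may mark pairs, from the data and not from a label. Same-numbered EV_RIP and knockdown libraries did not all do so (correlations -0.288 to 0.487). The main test used no pairs, so its SEs between positive and negative cells ignore them. The replicate block applied the numbers to EV_RIP as well, so no comparison pairs negative and positive libraries alone.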

Additional observations from a re-analysis of the deposited data

Results flagged for a closer look

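Of 39 groups of 4 libraries examined among the 10 genes and their sums, 2 held a library far from the other 3, about what chance gives at 1 in 20 groups. Usp17ld stood at 0.208 CPM (10 counts) in EV_RIP replicate 1, against 0.0207 to 0.0491 CPM in the other EV_RIP libraries. The Tcstv sum stood at 0.0272 CPM (1 count) in positive replicate 3, against 0.274 to 0.314 CPM in the other positive libraries.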

How the results depend on the processing

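For the 10 genes, all 100 log2 fold changes of shSmndc1 against EV under 10 alternatives were above 0 (2.50 to 5.15). So were 52 of 52 for negative cells (0.78 to 3.03) and 47 of 47 for positive cells (1.06 to 3.64) against EV_RIP. The genes were chosen as higher after knockdown in these data, and the alternatives reuse the same counts. These signs therefore describe the fits and support nothing. Positive against negative cells gave 40 above and 11 below 0. In experiment 1 all 10 genes were called under every alternative except that 7 were called without EV replicate 2 or shSmndc1 replicate 2, and 3 without EV replicate 3. Leaving out 1 library at a time, the summed log2 ratio ranged from 3.19 to 4.22 in shSmndc1; genes called ranged from 71 to 1547 higher and 110 to 1789 lower, and further 2-cell genes from 1 to 15. In negative cells these were 127 to 3036 higher, 32 to 2795 lower and 0 to 3; in positive cells 646 to 1811, 612 to 1775 and 1 to 5; between positive and negative cells 0 to 220 and 0 to 297. Without the low-count filter, experiment 1 gave 2024 higher, 2141 lower and 18 further 2-cell genes, negative cells 1700 lower, and positive against negative cells 39 and 111. DESeq2 gave 2441 higher in negative cells, and 110 and 205 between positive and negative cells. With the replicate block, negative cells gave 2421 higher and 2176 lower, positive cells 2508 and 2571, and their comparison 22 and 56; the EV_RIP numbers are not supported as pairs, and in experiment 1 same-numbered libraries did not deviate together. Without negative replicates 3 and 4, an alternative chosen after seeing the data, negative cells gave 4 higher, 0 lower and 0 further 2-cell genes. The cause of these shifts was not tested. Depth was lowest in negative replicate 3, where 3 counts are 0.361 CPM.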
